A study of Chlorocebus aethiops with 3 samples.

Results

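The mRNA of TRAM1 and those of 9 partners at the protein-conducting channel of the endoplasmic reticulum (ER) were followed in heavy polysomes after RNA helicase A (RHA) was targeted with siRNA. The 10 mRNAs, of 32695 accessions on the array, were found by their RefSeq accessions among the probe spots of the scanner tables, and 19 of the 41000 probes measured them. TRAM1 (NM_014294) was chosen by its measured ratio of knockdown over control, the largest mean among RefSeq mRNAs. Its values are therefore a description and carry no test. The other 9 were picked because their proteins work at the same channel: TRAM2 (NM_012288), SEC61A1 (NM_013336), SEC61B (NM_006808), SEC61G (NM_014302), SSR1 (NM_003144), SSR2 (NM_003145), SSR3 (NM_007107), SSR4 (NM_006280) and SEC62 (NM_003262). The question was whether these partners moved with TRAM1.

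Secretory and membrane proteins enter the ER through the Sec61 channel, which is built from an alpha subunit that forms the pore (SEC61A1) and the small beta (SEC61B) and gamma (SEC61G) subunits. TRAM1 is a membrane protein that sits beside the channel and helps some signal sequences and membrane segments to enter the lipid bilayer, and TRAM2 is its homologue. SSR1 to SSR4 encode the alpha, beta, gamma and delta subunits of the translocon-associated protein complex, which binds the channel and assists the entry of some substrates. SEC62 works with SEC63 in the entry of proteins that arrive after their synthesis.

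The cells were COS-7, a transformed kidney line of the African green monkey. Control cells received scrambled siRNA, and knockdown cells received siRNAs designed on the coding region of human RHA (encoded by DHX9), each at 0.5 nM and in repeated transfections, with the last one 24 hours before harvest. Cytoplasmic lysates were spread over sucrose gradients of 15% to 45%, and RNA was taken from the fractions with the heaviest polysomes. Each of 3 two-colour Agilent arrays, 1 for each biological replicate, held control RNA in Cy3 and knockdown RNA in Cy5. All arrays shared 1 slide and 1 dye orientation, so an effect of the dyes and an effect of the siRNA cannot be told apart. The probes were designed on human sequence. Total RNA was not analysed here, so more of an mRNA in the cell and a heavier load of ribosomes on it cannot be told apart either.

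Well above background were 37.5% to 50.7% of the probes in the control channel and 45.5% to 53.1% in the knockdown channel, with replicate 3 highest in both. Of the tested RHA probes, A_24_P36847 gave -0.12, -0.12 and -0.76 on the log2 scale, in the order of replicates 1 to 3. A_23_P97749 gave -0.041, -0.20 and -0.60 in the same order. Both were below 0 on every array, and neither passed the test (limma adjusted p of 0.210 and 0.217). Median centring over all probes turned both means above 0, to 0.068 and 0.26. Centring on the tested probes left them below 0, at -0.25 and -0.055. Another RHA probe, A_24_P808534, was well above background in 1 control channel and 0 knockdown channels and was not tested. It gave -0.29, 0.13 and -0.12 on replicates 1 to 3. In a check of the cell type, accessions listed as fibroblast or mesenchymal markers were well above background in every control channel for 3 of 4 on the array, epithelial ones for 3 of 4, and kidney-lineage ones for 1 of 1. Leukocyte (0 of 1) and endothelial (0 of 2) accessions were not well above background in any control channel. With human probes on monkey RNA, a probe at background does not show that the message is lacking.

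TRAM1 was far brighter in the knockdown channel on all 3 arrays. Its single probe, A_23_P112135, gave control signals of 151, 169.5 and 433 on replicates 1, 2 and 3, over local backgrounds of 29, 24.5 and 27. The knockdown signals were 3320, 3811.5 and 5578, over backgrounds of 57, 61 and 64. Both channels were well above background on every array, and no spot of any of the 10 mRNAs carried an outlier flag. Before normalization, the background-subtracted log2 ratios of TRAM1 were 4.74, 4.69 and 3.76, where the median of all tested probes was 1.30, 1.96 and 1.44. The Cy5 channel was thus the brighter one for most probes, and the part of that imbalance that a probe shares with others of its brightness was removed by loess.

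**Figure D1:**
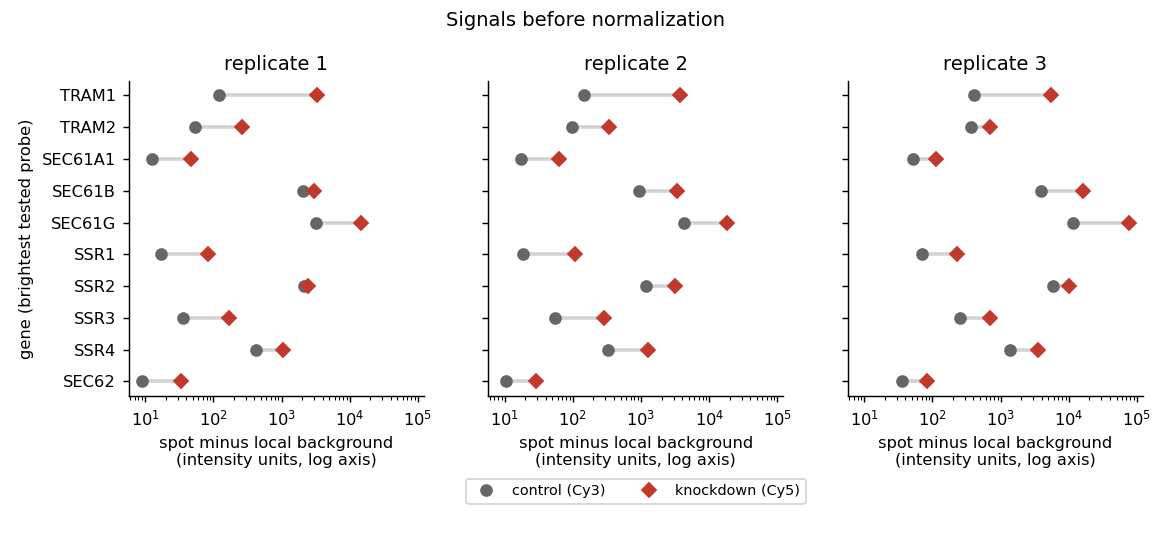
Spot signal minus local background (intensity units, log axis) for the brightest tested probe of each mRNA in the control (Cy3, circles) and knockdown (Cy5, diamonds) channel of replicates 1, 2 and 3, before normalization. The gap between the channels is widest for TRAM1 in every panel, and signals of different probes cannot be compared as levels of their mRNAs.

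After background correction and loess, the log2 ratios of TRAM1 were 3.34, 2.72 and 2.14 on replicates 1, 2 and 3. The mean was 2.73 ± 0.60 (SD, n = 3), or 6.64-fold. Replicate 1 had the highest ratio and replicate 3, which had the brightest control signal, the lowest. Agilent's own processed signals gave log2 ratios of 3.83, 3.10 and 2.27, with errors of 0.41, 0.35 and 0.29 from the scanner software's error model. The spread between the arrays exceeded those errors. Among 10826 RefSeq mRNA accessions with a tested probe, TRAM1 had rank 1 on replicate 1, rank 2 on replicate 2 and rank 7 on replicate 3. The accession next to it by mean ratio was NM_032273, at 2.71. The order between these is within the spread of the arrays, and TRAM1 had rank 4 without replicate 1.

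The partners did not show a ratio of that size. Of the 9, none passed the test upward and 1, SSR2, passed it downward (11.1%; limma, adjusted p under 0.05). Among all 14526 accessions tested, 9.93% passed upward and 9.33% downward, and 19.3% in either direction. At an unadjusted p under 0.05, limma placed 3 partners above 0 and 1 below, where 18.4% of all accessions were above and 18% below. Counted by probe, 0 of the 13 tested partner probes rose and 1 fell, where 9.72% and 8.65% of all 18143 tested probes did, or 18.4% together. The partners' median log2 ratio was 0.31, 0.17 and -0.037 on replicates 1, 2 and 3, and the median of their means was 0.14, where the median over all accessions was 0.010. Their means ran from -0.61 for SSR2 to 0.80 for SEC61G. Above 0 were 7, 6 and 4 of the 9 partners on replicates 1, 2 and 3. Those above 0 on all 3 arrays were SEC61G, SSR1 and SSR3, or 3 of 9, where 31.2% of all accessions were. SSR2 alone among the partners was below 0 on all 3 arrays, where 27.5% of all accessions were. Of the 13 partner probes, 3 were above 0 on all 3 arrays and 2 below, against 31.8% and 26.6% of all probes.

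**Figure D2:**
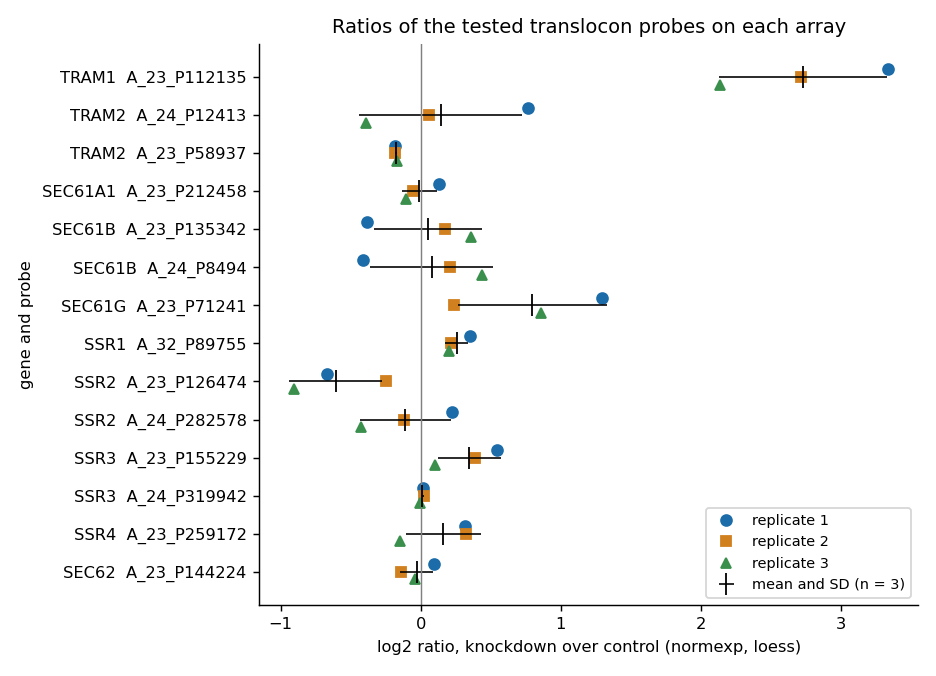
Log2 ratios of knockdown over control (x axis) of the 14 tested probes of the 10 mRNAs (y axis), with 1 symbol for each replicate and a line for the mean ± SD (n = 3). TRAM1 lies between 2.14 and 3.34, and the highest partner value on any array is 1.29, for SEC61G on replicate 1.

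TRAM2, the homologue of TRAM1, was measured by a pair of tested probes, whose order changed between the arrays. The brighter, A_24_P12413, minus A_23_P58937 was 0.95, 0.24 and -0.23 on replicates 1, 2 and 3, on average 0.32 with an SD of 0.59. A_24_P12413 had log2 ratios of 0.76, 0.062 and -0.39. They averaged 0.14 ± 0.58 (SD, n = 3) with a 95% interval from -0.43 to 0.72 (limma adjusted p of 0.690). Replicate 1 was high and replicate 3 was below 0, so the sign rested on the array. A_23_P58937 had -0.18, -0.18 and -0.17, a mean of -0.18 ± 0.0095 (SD, n = 3), and its limma adjusted p was 0.242. Its signals were dim, with control values of 40, 38 and 44 over backgrounds of 26, 29 and 26.5. Setting the offset to 0 gave a mean of -0.51 and the scanner software's processed ratio gave -0.81 (limma adjusted p of 0.124 and 0.0503), and it passed with an intensity trend (0.0415). For the brighter TRAM2 probe, TRAM1 minus TRAM2 was 2.58, 2.65 and 2.53, with an SD of 0.063. This SD was the smallest of the 9 partners, singled out after the values were seen, and the other SDs ran from 0.38 to 0.98.

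The subunits of the Sec61 channel had unlike ratios. SEC61G, the gamma subunit, had log2 ratios of 1.29, 0.24 and 0.86 with probe A_23_P71241, its single probe. The mean was 0.80 ± 0.53 (SD, n = 3), or 1.74-fold, with a 95% interval from 0.26 to 1.33. It was above 0 on every array, with replicate 2 well under the others, and it missed the threshold (limma adjusted p of 0.0586). It passed in 7 of 14 alternatives, with limma adjusted p between 0.0014 and 0.137, and its mean was 1.73 with median centring over all probes and 1.41 with centring on the tested probes. It had rank 515 among the RefSeq mRNAs. SEC61G control signals were 3176, 4337.5 and 11605.5 and knockdown signals 14590, 17955.5 and 77227.5, and no spot was saturated.

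SEC61B, the beta subunit, was measured by a pair of probes that gave the same picture. A_23_P135342 had -0.38, 0.17 and 0.36 and A_24_P8494 had -0.41, 0.21 and 0.44 on replicates 1, 2 and 3. Replicate 1 was below 0 and the others above it with both probes. The difference between the probes was -0.027 with an SD of 0.053 over the arrays, against an SD between arrays of 0.39 and 0.44 for the probes themselves. Their means were 0.051 (95% interval -0.37 to 0.47) and 0.078 (-0.38 to 0.54), with limma adjusted p of 0.852 and 0.791. The scatter of SEC61B thus lay between arrays and not between probes. SEC61A1, the pore-forming alpha subunit, had 0.13, -0.055 and -0.10, a mean of -0.0082 ± 0.13 (SD, n = 3). Its interval ran from -0.27 to 0.25 (limma adjusted p of 0.964). Its single probe was dim, with control signals of 39, 44 and 76 over backgrounds of 26.5, 26.5 and 24, and at such signals the offset of the background correction pulls a ratio toward 0.

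Of the translocon-associated protein complex, the beta subunit SSR2 fell and no other subunit passed the test. The brighter SSR2 probe, A_23_P126474, gave log2 ratios of -0.67, -0.25 and -0.90. All were below 0, and the mean was -0.61 ± 0.33 (SD, n = 3), or 0.656 of the control signal, with a 95% interval from -0.99 to -0.23. The limma adjusted p was 0.0493, just inside the threshold. It passed in 4 of 14 alternatives, in which the adjusted p ranged from 0.0355 to 0.692, and its mean turned to 0.20 with median centring over all probes. Without replicate 1, 2 or 3 the means were -0.58, -0.79 and -0.46 at limma adjusted p of 0.0969, 0.120 and 0.119, and without replicate 2 no probe on the array passed. The dimmer SSR2 probe, A_24_P282578, had 0.22, -0.12 and -0.43, a mean of -0.11 (95% interval -0.49 to 0.27), and did not pass (limma adjusted p of 0.642). The brighter probe was the lower one on all 3 arrays, by 0.50 on average with an SD of 0.38. The fall of SSR2 was thus carried by 1 of its probes.

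SSR1, the alpha subunit, had log2 ratios of 0.35, 0.22 and 0.20 with probe A_32_P89755. The mean was 0.26 ± 0.081 (SD, n = 3), with an interval from 0.011 to 0.50 and a limma adjusted p of 0.130. All arrays lay above 0. The probe was dim, with control signals of 42, 43.5 and 95.5 over backgrounds of 25, 25 and 24.5. At an offset of 0 its mean was 0.49, and the scanner software's processed ratios were 1.20, 0.68 and 0.38, a mean of 0.76. The other SSR1 probe was well above background in 1 control channel and 1 knockdown channel and was not tested. SSR3, the gamma subunit, had 0.55, 0.39 and 0.10 with its brighter probe A_23_P155229, a mean of 0.35 ± 0.23 (SD, n = 3), at a limma adjusted p of 0.113. Its dimmer probe A_24_P319942 had 0.015, 0.021 and -0.0014, a mean of 0.011. The brighter SSR3 probe was the higher one on 3 arrays, by 0.33 with an SD of 0.22. SSR4, the delta subunit, had 0.31, 0.32 and -0.15, a mean of 0.16 ± 0.27 (SD, n = 3) and a limma adjusted p of 0.430. Replicate 3 was the lowest array for the bright probes of all 4 subunits.

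SEC62 carried 5 probes, of which 1 was tested. That probe, A_23_P144224, had log2 ratios of 0.094, -0.14 and -0.037. They averaged -0.027 ± 0.12 (SD, n = 3), with an interval from -0.29 to 0.23 (limma adjusted p of 0.873). It was well above background on 3 of 3 arrays in the knockdown channel and on 2 of 3 in the control channel. A_24_P285880 was well above background in each channel on 1 array, and the remaining 3 SEC62 probes on none. The measured ratios of these 4 dim probes had means between -0.061 and 0.12, which say little at this signal.

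**Figure D3:**
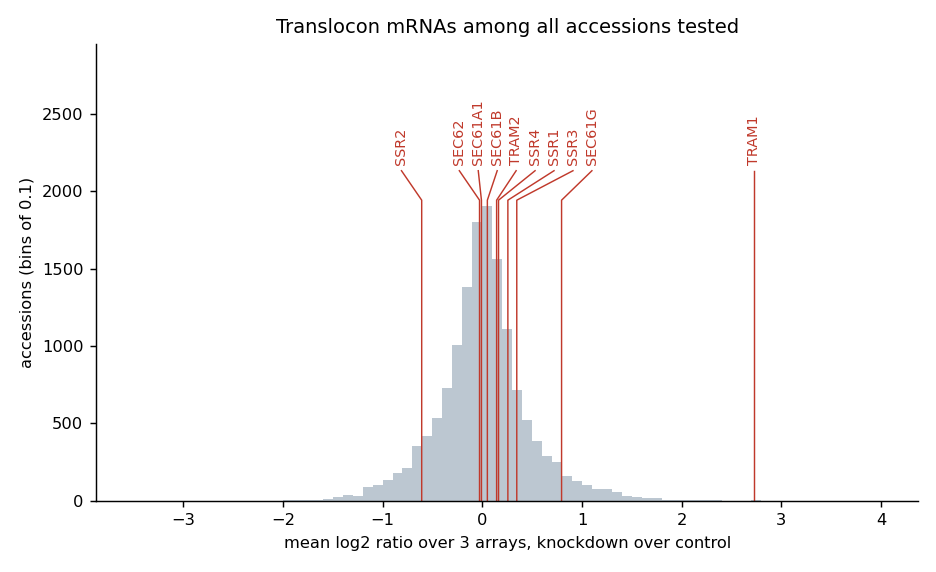
Number of accessions (y axis, bins of 0.1) by mean log2 ratio over 3 arrays (x axis) for the 14526 accessions tested, each by its brightest tested probe, with the 10 mRNAs marked by lines. The 9 partners lie between -0.61 (SSR2, rank 13347 of 14526 by mean) and 0.80 (SEC61G, rank 731). TRAM1 stands at the upper end of the distribution at 2.73.

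In order of mean ratio the 10 mRNAs were TRAM1, SEC61G, SSR3, SSR1, SSR4, TRAM2, SEC61B, SEC61A1, SEC62 and SSR2. TRAM1 exceeded SEC61G on each array, by 1.94 on average with an SD of 0.61. SEC62 exceeded SSR2 on each array, by 0.58 with an SD of 0.41. No other neighbours in this order were ranked the same way on all 3 arrays, and their mean differences of 0.019 to 0.45 were smaller than the SD of the difference. TRAM1 exceeded every partner on every array, by at least 1.28 on the log2 scale (SEC61G on replicate 3), which follows in part from how TRAM1 was picked.

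The mRNAs with a pattern most like that of TRAM1 were sought among 10823 other RefSeq accessions, by the largest difference from TRAM1 on any of the 3 arrays. NM_032273 was nearest, with 3.07, 2.21 and 2.85 and a largest difference of 0.72. NM_002032 followed, with 2.77, 2.38 and 1.35 and a largest difference of 0.79, and for the accession after that the largest difference was 0.97. These accessions carry no gene name in the scanner files.

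Other accessions of ER entry and folding were counted on lists drawn up from general knowledge. They covered the signal recognition particle and its receptor, which bring ribosomes to the membrane, and SEC63 with a relative of SEC61. Further lists held the signal peptidase, which removes signal sequences, and the oligosaccharyltransferase, which attaches glycans. The remaining lists held chaperones of the ER lumen and other routes of membrane insertion. Of 55 listed accessions 51 were tested, and 10 rose (19.6%) and 2 fell (3.92%), where 9.93% and 9.33% of all accessions did. Their median log2 ratio was 0.20, against 0.010 over all accessions, and it was 0.40, 0.19 and -0.040 on replicates 1, 2 and 3. Without replicate 2, limma called 0 of them in either direction, as it did of all 18140 probes. At an unadjusted limma p under 0.05, 12 of 51 were then above 0 and 7 of 51 below, against 12.4% and 12% of all accessions. With no filter on dim probes, 4 of the 52 listed accessions on the array rose, where 2.69% of all 32695 accessions did. With median centring over all probes limma called 16 of 51 higher and 0 of 51 lower, where 19.8% and 0.365% of all accessions were called. At an unadjusted limma p under 0.05, 31 of 51 were then above 0 and 0 of 51 below, against 37.4% and 1.54% of all accessions.

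Beside the counts of each list below, 9.93% of all accessions rose and 9.33% fell. The signal peptidase list had 3 of 5 accessions risen and none fallen, with means from 0.27 to 1.49 and a median of 0.70. Of these 5, 4 were above 0 on all 3 arrays, where 31.2% of all accessions were. On the oligosaccharyltransferase list 2 of 9 rose and none fell, with means from -0.24 to 1.21. The signal recognition particle list had 1 of 8 risen, at 1.43, and 1 of 8 fallen: NM_003134 gave -0.61, -1.08 and -0.91 on the 3 arrays, on average -0.87 ± 0.24 (SD, n = 3) at a limma adjusted p of 0.0194. On the list of SEC63 and a relative of SEC61, both means were above 0, and 1 of 2 rose, at 1.08.

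On the list of other insertion routes 3 of 16 rose, the highest at 1.76, and 1 fell, against the 9.93% and 9.33% of all accessions. The fallen one, NM_015949, gave -0.97, -1.09 and -1.11 on the 3 arrays, on average -1.06 ± 0.075 (SD, n = 3) at a limma adjusted p of 0.0143. Of 11 chaperone accessions, limma called 0 in either direction, while its unadjusted p was under 0.05 for 1 above 0 and 4 below, against the 18.4% and 18% of all accessions. Their means ran from -0.60 to 0.45, and their median was 0.15, 0.063 and -0.58 on replicates 1, 2 and 3, so replicate 3 stood below the others. A difference between these lists was not tested.

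**Figure D4:**
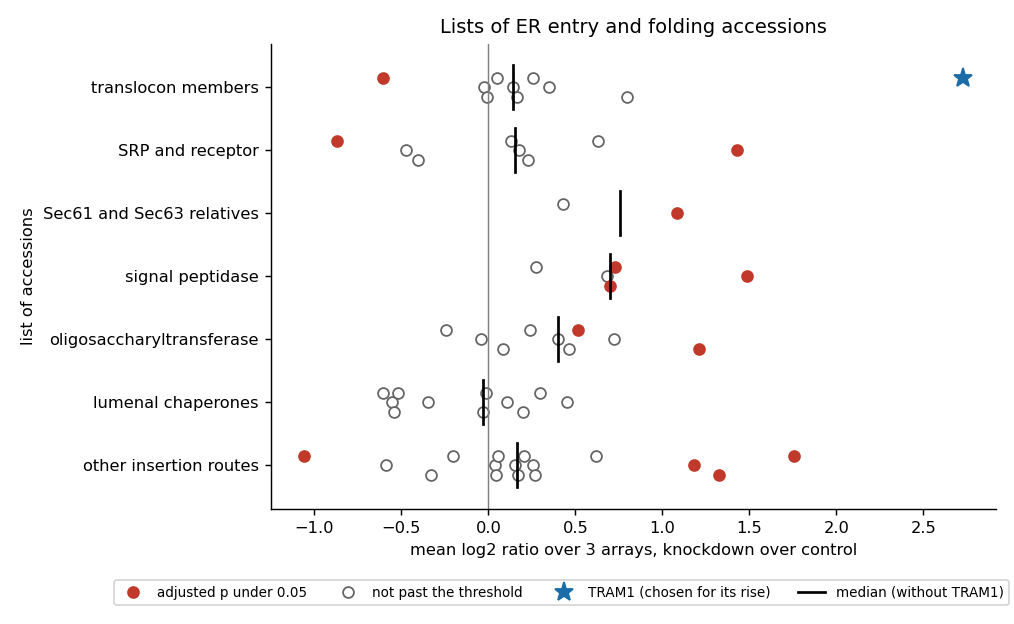
Mean log2 ratio over 3 arrays (x axis) of the 10 translocon mRNAs and of the accessions on each list (y axis), each by its brightest tested probe. Filled circles passed the limma test (adjusted p under 0.05), open circles did not, the star is TRAM1, and black bars are medians without TRAM1; the signal peptidase list has its 5 values between 0.27 and 1.49.

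In the 14 alternatives of processing, the ratio of TRAM1 had means between 2.43 (without replicate 1) and 3.42 (median centring over all probes). The alternatives use the same spots by which TRAM1 was picked, so its values under them are a description and no support for its rise. Leaving out arrays could not turn the sign, since the ratio was above 0 on each. The rank of TRAM1 among RefSeq mRNAs was between 1 and 4. Median centring, which does not follow the dye balance along brightness, moved the median of all tested probes from 0.018 to 0.30 and that of the partners from 0.14 to 0.69, so the partners' shift beyond that of all probes also depended on this choice.

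**Figure D5:**
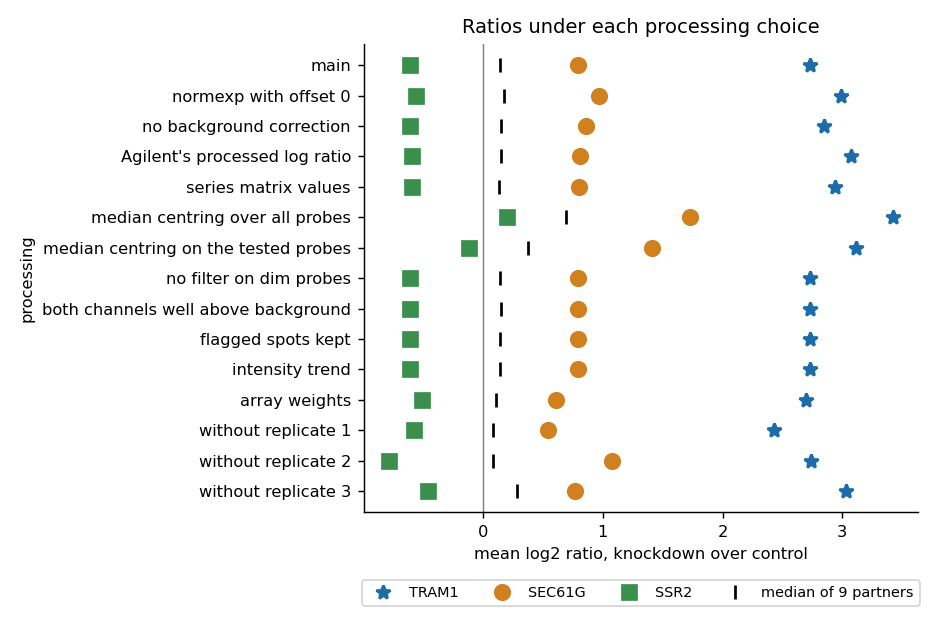
Mean log2 ratios (x axis) of TRAM1, SEC61G and the brighter SSR2 probe, and the median of the partners, under the main processing and 14 alternatives (y axis). TRAM1 stays between 2.43 and 3.42, SEC61G between 0.55 and 1.73, and SSR2 lies above 0 in 1 of the settings, median centring over all probes.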

How the data were processed

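Heavy polysome RNA of 3 replicate pairs was compared on arrays of Agilent design 014850. Spot intensity came from Feature Extraction 10.9.1.1, per the file headers, which also gives the deposited log10 ratio of Cy5 over Cy3. The submitters' processing notes name version 10.9 and limma. The authors' value table holds log2 ratios, whose scale and direction are not stated. Its medians were 0, 0.01 and 0.01, and it correlated with the ratios used here (Pearson's r across probes of 0.984, 0.977 and 0.975), so it was read as knockdown over control.

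Median spot and background intensities were corrected with normexp (offset 50) and loess in R 4.3.3 with limma 3.58.1, control spots at weight 0. Flagged spots, 142 to 150 of 43376 on an array, were left out. A probe was tested if most of its spots were well above background in the same channel of all 3 arrays (18143 of 41000), with lmFit and eBayes, 2-sided, with Benjamini-Hochberg adjustment over all of them. Of these, 18.4% passed 0.05. An accession stood for its brightest tested probe. Precision is limited by the number of arrays: with 3, the smallest p of an exact sign-flip test is 0.25. The test was also run on simulated data with added ratios of known size and noise independent between probes. Shifts shared by the probes of an array were not simulated, so that run does not measure the share of false calls here.

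The members, lists and named accessions were chosen with earlier results of these data known. The rule for named genes took all members, RHA, the accessions most like TRAM1 and the extremes of each list; most list extremes are given as values without their accession. The names of the 10 mRNAs came with the choice of members, and the list and marker accessions were set down from general knowledge. No annotation table was used, so the other accessions have no gene names here, and at most 2 that rose and 2 that fell are given. An oligosaccharyltransferase entry without an accession was not used. No sequences are shown, since the files used here hold none. The alternatives changed the background correction, normalization, filter, flags, variance model, array weights, source of values and arrays.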

Additional observations from a re-analysis of the deposited data

How the results depend on the processing

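Over 14 alternatives, the 13 tested partner probes gave 181 mean log2 ratios, of which 18 had a turned sign, in 8 probes. Median centring over all probes turned SSR2 to 0.20 (A_23_P126474) and 0.41 (A_24_P282578), SEC62 to 0.11, SEC61A1 to 0.24 and the RHA probes to 0.068 and 0.26, and moved TRAM1 to 3.42 and the partners' median to 0.69. Centring on the tested probes turned SSR2 A_24_P282578 to 0.10 and SSR3 A_24_P319942 to -0.033 and moved the partners' median to 0.38. SEC61A1, at -0.0082, turned to 0.026 with offset 0, 0.027 without background correction, 0.10 with the scanner's processed log ratio and 0.02 with the series matrix values. Leaving out a replicate gave SEC61A1 means of -0.079 to 0.040, SEC61B of -0.10 to 0.27 (A_23_P135342) and -0.10 to 0.32 (A_24_P8494), SEC62 of -0.088 to 0.028, TRAM2 A_24_P12413 of -0.17 to 0.41 and SSR2 A_24_P282578 of -0.27 to 0.050.

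The count of partners called higher was 0 in the main processing, where 9.93% of all accessions were. It was 1 with offset 0 (15.8% of all accessions), no background correction (12.7%), the series matrix values (13.7%) and median centring over all probes (19.8%). It was also 1 with both channels required above background (8 partners tested, 11.9%) and an intensity trend (16.4%). With centring on the tested probes it was 2 (17.5%). The count called lower was 1, where 9.33% of all accessions were. It was 0 with offset 0 (13.5% of all accessions), Agilent's processed log ratio (11.4%), the intensity trend (14.8%) and array weights (11.7%). It was also 0 with median centring over all probes (0.365%), centring on the tested probes (6.26%) and no filter (2.61%). Leaving out any replicate gave 0 as well (0% to 8.62%). Of the ER lists, 10 accessions rose (9.93% of all accessions), against 16 with median centring over all probes (19.8%) and 4 with no filter (2.69%). Without a replicate 0 to 11 rose (0% to 8.61%). The fallen ones, 2 (9.33% of all accessions), were 4 with offset 0 (13.5%), no background correction (11.9%) or the intensity trend (14.8%). They were 5 with the series matrix values (12.1%) or array weights (11.7%). Median centring over all probes gave 0 (0.365%) and centring on the tested probes 1 (6.26%), and leaving out a replicate 0 to 3 (0% to 8.62%). The 0 among the left-out replicates arose without replicate 2, where no probe on the array passed. Limma's unadjusted p was then under 0.05 for 2228 probes above 0 and 2010 below. The share of upward calls over all probes was 52.9%, against 98.4% and 74.2% with the 2 kinds of centring. The causes were not tested. Signals near background limit SEC62, SEC61A1, SSR1 and the dimmer probes of TRAM2 and SSR3. The test of the ratios within arrays is itself the paired comparison. No paired analysis was possible beside it, because a ratio per array leaves 1 group.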
